A study of Mus musculus with 10 samples.

Results

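The comparison described here set cultures carrying a short hairpin RNA against Cbx7 beside cultures carrying a control hairpin, and asked which transcripts differ between them. Its members were chosen from the hairpin named in the labels: 3 libraries with the anti-Cbx7 hairpin (shCBX7 replicates 1, 2 and 5) and 4 with a scrambled hairpin that has no target (shCTR replicates 1, 2, 5 and 6), so 7 of the 10 libraries of the series. The other 3 carried a hairpin against Cbx8 (shCBX8 replicates 1, 2 and 6) and entered for the estimate of the spread and for a direct contrast at the end. All groups shared the same source: olfactory epithelium of adult C57BL6 mice taken 9 days after methimazole, a drug that strips the epithelium and so triggers regeneration, dissociated with enzymes and kept as adherent cultures on gelatin with EGF, FGF2 and heparin. Each culture received a lentivirus, the controls too. The labels describe 1 anti-Cbx7 agent without its sequence, so an effect of the hairpin on other transcripts and an effect through Cbx7 cannot be told apart. The labels call the samples biologic replicates without naming separate cultures or animals. The p-values therefore rest on the spread among these libraries. Whether that spread includes differences between animals is not known.

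CBX7 is a chromodomain subunit of Polycomb repressive complex 1 (PRC1). The chromodomain binds histone H3 methylated by Polycomb repressive complex 2 (PRC2), and PRC1 adds ubiquitin to histone H2A and compacts chromatin, which keeps developmental genes such as the Hox clusters silent. In canonical PRC1 the chromodomain seat is filled by 1 of several related proteins, among them those encoded by Cbx2, Cbx6, Cbx7 and Cbx8. CBX7 is known for repressing Cdkn2a, the locus of the growth-arrest proteins p16Ink4a and p19Arf, and thereby for letting cultured cells go on dividing. In the olfactory epithelium the horizontal basal cells are the reserve stem cells that divide after a lesion, and globose basal cells give rise to neurons.

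Levels are given in CPM, counts per 1000000 of the TMM-scaled library size. Gene counts per library ran from 22763014 to 35414943 in shCTR and from 35144409 to 50463172 in shCBX7, with 31665704 to 43731320 in shCBX8. The markers of the named tissue were those of mixed adherent cells rather than of neurons. Krt5 and Krt14, keratins of basal cells, were present in each of the 7 libraries, at 8.37 to 336 CPM and 32.6 to 441 CPM, and so was Pdgfra, a receptor of fibroblasts, at 839 to 3860 CPM. The neuronal progenitor factor Neurog1 did not exceed 0.150 CPM, Omp of mature olfactory neurons did not exceed 0.605 CPM, and Cyp2g1 of sustentacular cells did not exceed 0.518 CPM. The first principal component of the 7 libraries held 54% of the variance and did not separate the hairpins: shCTR 2 and shCBX7 2 lay at one end, at -69.1 and -33.2, and shCTR 6 and shCBX7 1 at the other, at 38.1 and 34.9.

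The targeted transcript was lower on average in shCBX7, with overlapping groups. Cbx7 (ENSMUSG00000053411, chr15:79915807-79971119, minus strand, GRCm38/mm10) measured 17.7, 16.4, 13.5 and 5.30 CPM in shCTR 1, 2, 5 and 6, and 3.64, 8.02 and 13.1 CPM in shCBX7 1, 2 and 5. The level in shCTR 6 lay inside the shCBX7 range, and shCBX7 5 lay near shCTR 5. The log2 fold change was -0.67 (SE 0.48, 95% interval -1.75 to 0.41, edgeR quasi-likelihood adjusted p = 0.929). Permuted exactly over the 7 libraries, two-sided, the difference in log2(CPM + 1) had p = 0.314, where the smallest possible is 0.0286. The interval holds both no change and a fall past 2-fold, and leaving out shCTR 1 and 2 brought the value to -0.19, leaving out shCBX7 1 to -0.29 and leaving out shCBX7 5 to -1.17, with none passing. Cbx7 therefore does not check the label, and shCBX7 below names libraries by that label.

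Of the related chromodomain genes Cbx2, Cbx6 and Cbx8 none passed. Cbx2 measured 8.12, 6.76, 7.26 and 8.81 CPM in shCTR 1, 2, 5 and 6 and 9.02, 9.45 and 9.42 CPM in shCBX7 1, 2 and 5. Its groups did not overlap, yet its log2 fold change of 0.26 (SE 0.18, 95% interval -0.13 to 0.66, edgeR adjusted p = 0.929) did not pass, and its exact two-sided permutation p was 0.0571. Log2 fold changes were -0.12 for Cbx6 (95% interval -0.71 to 0.47) and 0.01 for Cbx8 (-0.46 to 0.49). Cdkn2a measured 128, 90.2, 137 and 139 CPM in shCTR 1, 2, 5 and 6 and 139, 110 and 162 CPM in shCBX7 1, 2 and 5. Its groups overlapped, and the log2 fold change was 0.15 (95% interval -0.31 to 0.60), so a doubling lies outside the interval.

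**Figure D1:**
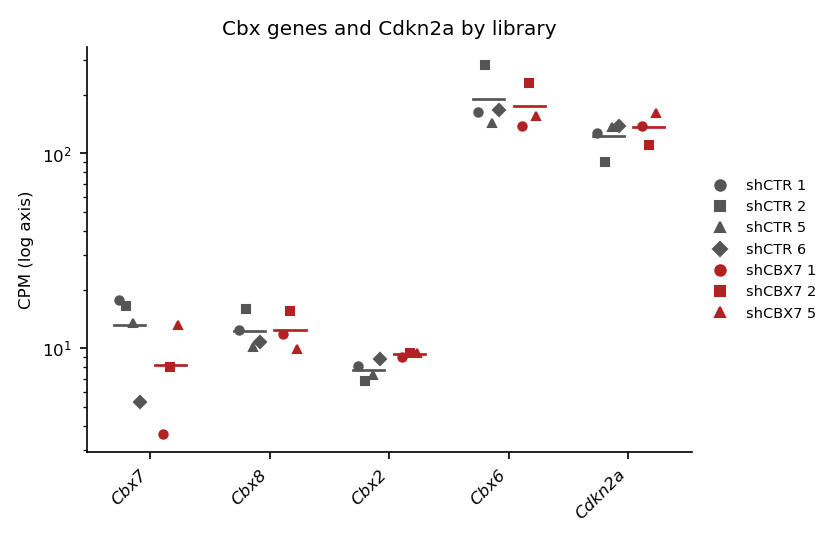
Levels of Cbx7, Cbx8, Cbx2, Cbx6 and Cdkn2a in CPM on a log axis, with 1 point per library and a line at each group mean. Cbx7 spreads from 3.64 to 13.1 CPM in shCBX7 and from 5.30 to 17.7 CPM in shCTR, while Cbx2 shows groups that do not overlap.

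The shCTR libraries held larger shares of unmapped and of opposite-strand reads. Unmapped reads made up 21.7, 19.6, 14.0 and 9.83% of all reads in shCTR 1, 2, 5 and 6, against 5.03, 5.95 and 6.20% in shCBX7 1, 2 and 5. The forward-strand count, which in these stranded libraries is the strand opposite to a gene, took 10.4, 8.68, 6.34 and 7.6% of stranded gene counts in shCTR and 3.96, 3.48 and 3.42% in shCBX7. Neither measure overlapped between the groups. Opposite-strand counts over 1318 olfactory and vomeronasal receptor genes, which few cells other than their own sensory neurons express, came, per 1000000 unscaled gene counts, to 95.3, 75.3, 59.0 and 27.7 CPM in shCTR 1, 2, 5 and 6 and to 9.97, 14.1 and 13.7 CPM in shCBX7. The same genes gave 58.0, 48.9, 33.7 and 16.8 CPM on their own strand in shCTR and 9.35, 14.5 and 11 CPM in shCBX7, so both strands were higher together.

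Genes with at least 1 count numbered 26778 ± 1358 (SD, n = 4) in shCTR and 22640 ± 234 (n = 3) in shCBX7, although the shCTR libraries were the shallower ones on average. Reads in no gene made up 23.6, 21.2, 20.7 and 20.4% in shCTR 1, 2, 5 and 6 and 12.5, 12.6 and 15% in shCBX7 1, 2 and 5, whereas reads mapping to several places overlapped between the groups. By exact two-sided permutation over the 7 libraries, p was 0.0286 for the forward-strand share, for reads in no gene and for the number of genes with a count, the smallest value possible, and 0.0571 for unmapped reads. The Benjamini-Hochberg value over 9 such measures was 0.0735 for each of these 4. In the shCBX8 libraries these measures did not move together. Forward-strand shares were 3.57, 7.75 and 3.83% in replicates 1, 2 and 6, and unmapped reads 7.81, 7.28 and 7.51%. Replicate 2, with the highest forward-strand share, had the lowest opposite-strand receptor count, at 12.6 CPM against 23.8 and 21.4 CPM in replicates 1 and 6.

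Repeat sequence also differed, and an example is shown here letter by letter. Whether its counts share an origin with the measures above was not tested. Gm10800 (ENSMUSG00000075014, chr2:98666547-98667301, minus strand, GRCm38) is a predicted gene whose transcript of 660 bases the annotation lists as coding. Its first 300 bases, from the GENCODE M21 transcript and written 5′ to 3′, hold 4 copies of a 12-base motif, drawn in capitals, and the whole transcript holds 7.
Gm10800: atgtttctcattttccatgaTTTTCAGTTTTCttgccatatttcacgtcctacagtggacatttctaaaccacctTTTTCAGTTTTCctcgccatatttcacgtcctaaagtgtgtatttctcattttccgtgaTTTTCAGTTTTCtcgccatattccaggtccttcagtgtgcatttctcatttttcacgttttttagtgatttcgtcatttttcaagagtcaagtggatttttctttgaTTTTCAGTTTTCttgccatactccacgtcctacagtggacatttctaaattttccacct

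The motif TTTTCAGTTTTC, searched on both strands, occurs in 6 of 32851 RefSeq promoter windows of mouse (0.0183%). Gm10800 made up 10.4, 8.34, 4.14 and 1.96% of the gene counts of shCTR 1, 2, 5 and 6 and 0.737, 1 and 0.98% in shCBX7 1, 2 and 5, so its groups did not overlap. Among tested genes, 13 models on chromosomes 2, 9 and 14 hold at least 3 copies of the motif. Their log2 fold changes lay between -2.97 and -2.62, and in each of the 13 the groups did not overlap and the unadjusted p was under 0.05. Over all genes tested, 3.73% were lower without overlap and 4.84% were lower at such a p. The motif was taken from Gm10800, which is among the 13, so they are no separate test of its difference. None of the 13 passed the adjusted test (edgeR adjusted p = 0.247 to 0.284). These models hold the same repeat, so their counts are uncertain and they are not independent. Between 31.3 and 67.7% of their stranded counts were on the opposite strand.

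**Figure D2:**
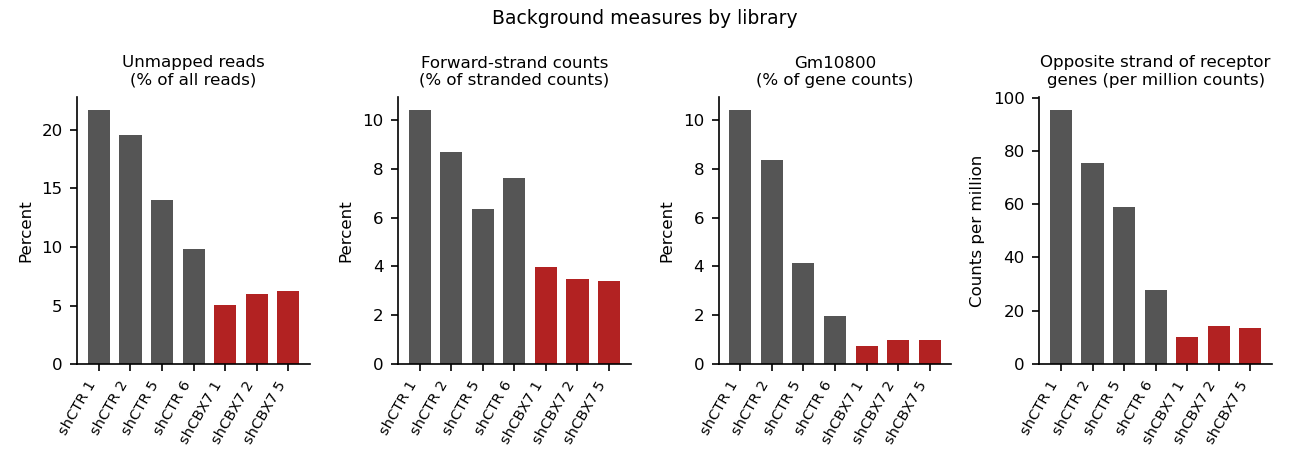
Background measures by library, as bars from 0: unmapped reads, forward-strand counts and Gm10800 in percent, and opposite-strand counts over 1318 receptor genes in CPM. The 4 shCTR libraries lie above the 3 shCBX7 libraries in each panel, with shCTR 1 and 2 highest in each.

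Across all expressed genes none passed. At an adjusted p under 0.05 edgeR's quasi-likelihood test called 0 of 16669 genes (0%), and the smallest adjusted p was 0.247. At an unadjusted p under 0.05 there were 169 genes with higher values in shCBX7 (1.01%) and 806 with lower values (4.84%). All shCBX7 libraries lay above all shCTR libraries for 283 genes (1.70%) and below them for 621 (3.73%). The intervals of this fit cover the spread among libraries, but not the background, which differed with the hairpin. Taken gene by gene, the 95% interval of the fold change lay within 2-fold either way for 9734 genes (58.4%). The same held for 8780 of the 11019 genes that averaged 5 CPM or more (79.7%). Such an interval does not bound a difference that background could hide. The interval lay within 1.5-fold for 5872 of those 11019 (53.3%).

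The genes with higher values and those with lower values were unlike each other in abundance and in strand. The 169 higher genes had a median level of 49.1 CPM and a median log2 fold change of 0.37. Of their stranded counts a median of 0.165% was on the opposite strand, against 0.774% over all genes tested. The 806 lower genes had a median level of 0.340 CPM, a median log2 fold change of -1.81 and a median opposite-strand share of 27%. Of these, 593 lay under 1 CPM (73.6%, against 20.2% of all genes) and 486 had more than 20% of their counts on the opposite strand (60.3%, against 12.4%). A low gene could pass the filter on low counts through shCTR alone, which favours lower values among such genes. In a fit of the 13544 genes that averaged at least 1 CPM, 103 were higher and 289 lower at an unadjusted p under 0.05.

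Sorted by opposite-strand share, with limits chosen after the data were seen, the median fold change was lower at each step. The 9039 genes under 1% had a median log2 fold change of 0.06, with 140 higher and 88 lower at an unadjusted p under 0.05 and a median level of 44.7 CPM. The 3327 genes at 1 to 5% had a median of -0.04, and the 2242 at 5 to 20% one of -0.21. The 2061 genes above 20% had a median of -0.56, with 3 higher and 486 lower, and their median level was 0.399 CPM. Without shCTR 1 and 2, over the genes that still passed the filter on low counts, the 4 medians were 0.04, 0, -0.05 and -0.20. The share also rises as abundance falls, so the part of strand and the part of low counts in this order were not told apart. Share and fold change come from the same 7 libraries, so part of the order may be built in.

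Leaving out the control libraries with most background, or taking the forward-strand count from each gene's count, left most directions in place and removed many of the small p-values. With shCTR 5 and 6 as the only controls the test also has less power, and shCTR 2 held the highest fibroblast marker sum of the 7 libraries. The parts of background, power and cell mixture in that step, here and below, were not told apart. Without shCTR 1 and 2, 697 of the 806 lower genes had the same sign and 231 had an unadjusted p under 0.05. All 169 higher genes had the same sign, and 21 had such a p. After subtraction 519 of the 806 could be tested, of which 497 had the same sign and 274 such a p, against 168 and 79 of 168 higher genes. In 522 of the 806 lower genes shCTR 1 and 2 both lay above shCTR 5 and 6 (64.8%, against 28.9% of all genes). With the log2 opposite-strand receptor count as a covariate, 38 of 74 genes named here turned in sign, Cbx7 among them (1.70). The receptor count did not overlap between the hairpins, so background and hairpin cannot be told apart in such a fit. The counts of higher and lower genes describe genes chosen by the same contrast and are no test of it.

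**Figure D3:**
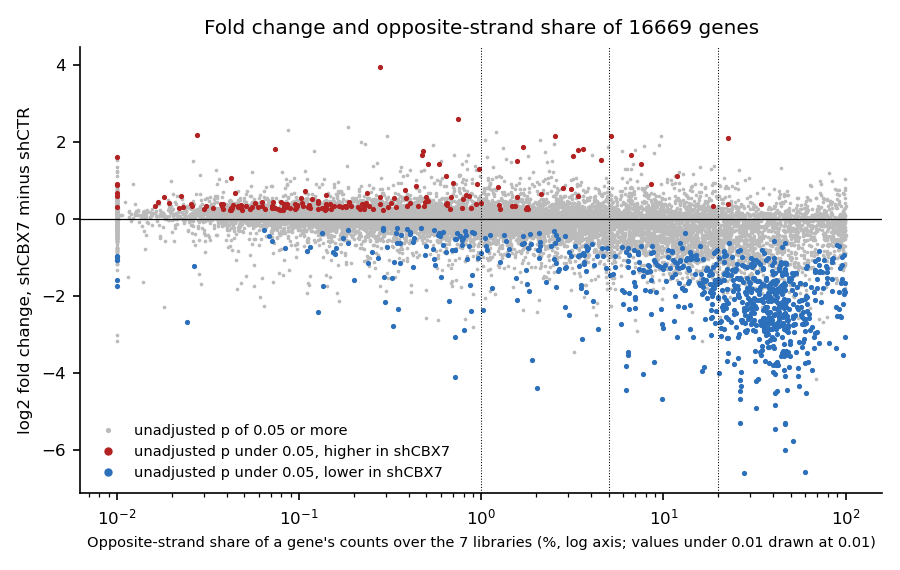
Each point is 1 of 16669 genes, with its opposite-strand share over the 7 libraries on a log axis and its log2 fold change (shCBX7 minus shCTR) on the vertical axis. Red points (169) and blue points (806) have an unadjusted p under 0.05, and the blue points gather right of the dotted line at 20%, where 486 of them lie.

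The genes with the smallest p among higher values were mostly widely expressed genes that differed by less than 1.5-fold. Dctn3 (chr4:41714798-41723170), a subunit of dynactin, the cofactor of the dynein motor, measured 43.4, 41.2, 40.3 and 43.5 CPM in shCTR 1, 2, 5 and 6 and 55.1, 56.3 and 52.1 CPM in shCBX7 1, 2 and 5. Each shCBX7 library lay above each shCTR library, with a log2 fold change of 0.37 (SE 0.09, 95% interval 0.17 to 0.58, edgeR adjusted p = 0.317). Ndfip1, an adaptor of NEDD4 ubiquitin ligases, measured 149, 159, 148 and 138 CPM in shCTR, against 195, 177 and 186 CPM in shCBX7, 0.33 apart on the log2 scale (SE 0.09, edgeR adjusted p = 0.423). Rfc2 (chr5:134581366-134601805), part of the clamp loader of DNA replication, measured 29.1, 27.1, 30.5 and 29.8 CPM in shCTR, against 37.9, 37.8 and 33.9 CPM in shCBX7, a log2 fold change of 0.33 (SE 0.09). Ndufa8, a subunit of respiratory complex I, measured 45.7, 46.9, 45.5 and 48.4 CPM in shCTR, against 63.3, 60.5 and 52.8 CPM in shCBX7, a log2 fold change of 0.34 (SE 0.10). In these 4 genes the shCTR libraries were tight among themselves and the groups did not overlap. Tpst2, which adds sulfate to tyrosines of secreted proteins, and Plp2, a membrane proteolipid, had log2 fold changes of 0.39 (SE 0.12) and 0.42 (SE 0.13), also without overlap.

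Prdx6 and Uchl1 had larger fold changes. Prdx6 (chr1:161240112-161251219), a peroxiredoxin that reduces lipid peroxides, measured 92.3, 90.8, 108 and 149 CPM in shCTR 1, 2, 5 and 6 and 164, 189 and 173 CPM in shCBX7 1, 2 and 5. The log2 fold change was 0.67 (SE 0.17, edgeR adjusted p = 0.351), and shCTR 6 lay nearest to shCBX7. Uchl1 (chr5:66676091-66687234), a ubiquitin hydrolase abundant in neurons, measured 7.76, 4.01, 8.04 and 8.72 CPM in shCTR, against 21.4, 10.8 and 14.3 CPM in shCBX7. It had a log2 fold change of 1.12 (SE 0.30, 95% interval 0.45 to 1.78, edgeR adjusted p = 0.370) without overlap between the groups.

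Grem1, Add2, Scg2, Adcy8 and Tnfrsf26 also had positive log2 fold changes of more than 1 without overlap between the groups. Grem1 (chr2:113746164-113758646), a secreted antagonist of bone morphogenetic proteins (BMPs), measured 152, 208, 417 and 545 CPM in shCTR 1, 2, 5 and 6 and 1528, 1344 and 629 CPM in shCBX7 1, 2 and 5. The lowest shCBX7 library, replicate 5, lay close above the highest shCTR library, and the log2 fold change was 1.82 (SE 0.72, 95% interval 0.20 to 3.44, edgeR adjusted p = 0.753). Add2, beta-adducin of the membrane skeleton, measured 5.27, 1.20, 5.05 and 13.5 CPM in shCTR, against 35.5, 14 and 15 CPM in shCBX7, a log2 fold change of 1.77 (SE 0.70). Scg2, secretogranin of dense-core vesicles, measured 25.6, 61.9, 43.8 and 73.6 CPM in shCTR, against 116, 278 and 125 CPM in shCBX7, a log2 fold change of 1.75 (SE 0.84). The separation between the groups was thus narrow for Add2 and wider for Scg2. Adcy8, an adenylyl cyclase, and Tnfrsf26, a death receptor relative, had log2 fold changes of 1.36 (SE 1.23) and 1.12 (SE 0.58), and Adcy8 was at 0.63 without shCTR 1 and 2.

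Named genes with lower values at 5 CPM or more included Lifr, Robo2, Scube1 and Runx1, and for several of them shCTR 1 or 2 stood highest. Lifr (chr15:7090614-7197489), the receptor of leukaemia inhibitory factor (LIF), measured 88.5, 180, 107 and 131 CPM in shCTR 1, 2, 5 and 6 and 53.7, 65.4 and 67.7 CPM in shCBX7 1, 2 and 5. The groups did not overlap, and the log2 fold change was -1.02 (SE 0.27, edgeR adjusted p = 0.356) and -0.93 without shCTR 1 and 2. Robo2 (chr16:73891839-74411825), a receptor of the guidance protein Slit, measured 234, 125, 147 and 68.9 CPM in shCTR, against 63.8, 65.8 and 57.6 CPM in shCBX7. The 3 shCBX7 libraries were tight, shCTR 6 lay just above them, and the log2 fold change was -1.20 (SE 0.33, edgeR adjusted p = 0.413), and -0.79 without shCTR 1 and 2. Scube1, a secreted protein with EGF-like repeats, measured 17.7, 58.9, 16.2 and 11.9 CPM in shCTR, against 5.41, 5.11 and 4.66 CPM in shCBX7. Its log2 fold change was -2.37 (SE 0.58, edgeR adjusted p = 0.317), and -1.47 without shCTR 1 and 2, and DESeq2 called it (DESeq2 adjusted p = 0.00789).

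Runx1 (chr16:92601466-92826149), a transcription factor of stem and progenitor cells, measured 117, 133, 86.0 and 78.8 CPM in shCTR 1, 2, 5 and 6 and 46.6, 63.8 and 68.7 CPM in shCBX7 1, 2 and 5. The log2 fold change was -0.80 (SE 0.21, edgeR adjusted p = 0.365), and -0.47 without shCTR 1 and 2. Rhou, an atypical small GTPase, measured 92.4, 84.5, 93.7 and 49.8 CPM in shCTR, against 48.0, 43.3 and 52.0 CPM in shCBX7, so shCTR 6 lay among the shCBX7 libraries, and the log2 fold change was -0.75 (SE 0.21). Without shCTR 6 it was -0.92 and passed (edgeR adjusted p = 0.0338). Dlc1, a GTPase-activating protein, measured 16.2, 23.5, 14.9 and 16.0 CPM in shCTR, against 7.63, 10.3 and 12.1 CPM in shCBX7, a log2 fold change of -0.82 (SE 0.23). Rap1gap2, which switches off Rap1, had one of -1.01 (SE 0.28), and -0.57 without shCTR 1 and 2. Of Rhou, Dlc1 and Rap1gap2 the groups overlapped only for Rhou.

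Slc26a7, an anion exchanger, measured 12.9, 19.3, 7.40 and 0.576 CPM in shCTR 1, 2, 5 and 6 and 0.4, 0.891 and 1.07 CPM in shCBX7 1, 2 and 5. Here shCTR 6 was as low as shCBX7, and the log2 fold change of -3.67 (SE 0.97, edgeR adjusted p = 0.370) rests on the other 3 controls. It was -2.34 without shCTR 1 and 2. DESeq2 called it (DESeq2 adjusted p = 0.00424), and without shCTR 6 it was -4.07 and passed in edgeR (edgeR adjusted p = 0.0338). Rerg, a Ras-like growth inhibitor, and Igf2, an imprinted growth factor, had groups that did not overlap. Rerg measured 11.8, 16.2, 3.84 and 2.30 CPM in shCTR, against 1.37, 2.23 and 2.23 CPM in shCBX7, a log2 fold change of -2.13 (SE 0.66), which was -0.66 without shCTR 1 and 2. Igf2 (chr7:142650766-142666816) measured 478, 235, 208 and 182 CPM in shCTR, against 147, 55.3 and 72.4 CPM in shCBX7, a log2 fold change of -1.59 (SE 0.60, edgeR adjusted p = 0.719). Aox3, an aldehyde oxidase, and Clu, the extracellular chaperone clusterin, had log2 fold changes of -1.47 (SE 0.78) and -1.23 (SE 0.45), and without shCTR 1 and 2 that of Clu was -0.70. Opposite-strand shares of these 12 lower genes ran no higher than 2.07%. The 12 were chosen at 5 CPM or more and the share rises as abundance falls, so their low shares follow in part from that choice.

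**Figure D4:**
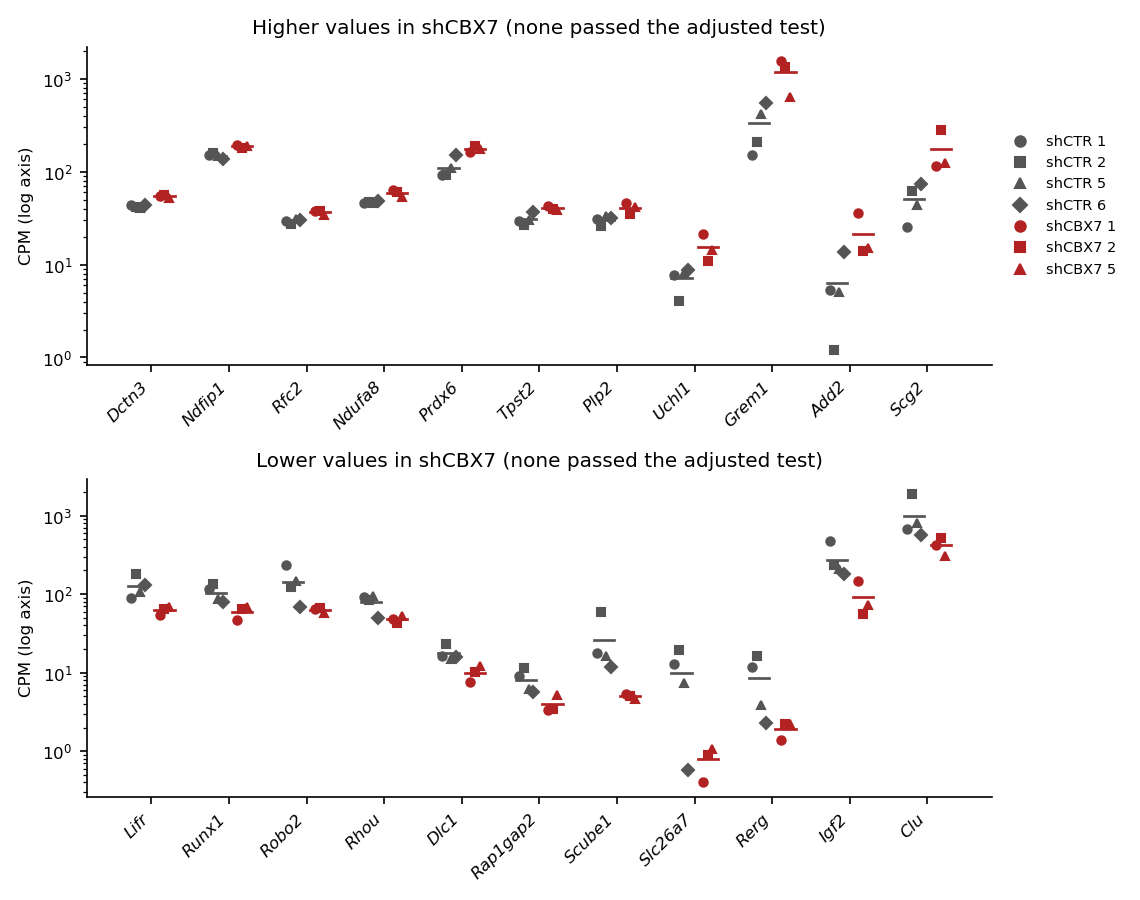
Levels of named genes in CPM on log axes, 1 point per library and a line at each group mean, with higher values in shCBX7 in the upper panel and lower values in the lower panel. Dctn3, Ndfip1, Rfc2 and Ndufa8 show tight groups a small step apart, while Grem1, Add2, Scube1 and Slc26a7 spread widely within a group.

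Other fits called some genes, most of them under 1 CPM and most with over 20% of their counts on the opposite strand. DESeq2 called 91 genes, 2 higher and 89 lower, with a median level of 0.498 CPM and a median opposite-strand share of 37.1%, with 72 of the 91 above 20% and 62 under 1 CPM. The higher ones were Dctn3 (DESeq2 adjusted p = 0.0282) and Ndfip1 (0.0293). Among lower ones, Cacna1e, a calcium channel of neurons, had 45.6% of its counts on the opposite strand and Smok2b, a sperm motility kinase, 20.2%. Mbd6, a nuclear protein with a methyl-CpG-binding domain, differed from them in level: it measured 4.36, 4.26, 4.06 and 3.77 CPM in shCTR, against 1.83, 2.32 and 2.59 CPM in shCBX7, with an opposite-strand share of 13.9% (DESeq2 adjusted p = 0.00221). Without shCTR 6, edgeR called 41 genes, 1 higher and 40 lower, with 37 above 20% on the opposite strand and 26 under 1 CPM. Called genes with low shares included Slc26a7 (1.90%, called by both fits), Scube1 (1.02%, by DESeq2) and Rhou (0.0838%, without shCTR 6). The higher one was Prdx6, at a log2 fold change of 0.85 (edgeR adjusted p = 0.0359).

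Of 42 gene lists, none had a member that passed. Their counts and medians are set beside a median log2 fold change of 0 over all genes tested, of which 50% had positive values. At an unadjusted p under 0.05 the shares over all genes were 1.01% higher and 4.84% lower. Without overlap between the groups they were 1.70% higher and 3.73% lower. Members of a list share samples and regulation and are not replicates, and in bulk cultures fewer cells of a type and less RNA per cell cannot be told apart.

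Genes of the machinery that CBX7 belongs to had mostly small values, and none passed. The 11 PRC2 subunits had a median of 0, with log2 fold changes from -0.25 to 0.13, and the interval of 10 of them lay within 2-fold. Rbbp4, a histone-binding subunit, was at 0.13 (SE 0.11). Of the 9 other canonical PRC1 subunits 7 had negative values, with a median of -0.12, and -0.04 without shCTR 1 and 2. Phc3, a polyhomeotic subunit, measured 93.2, 86.7, 63.1 and 67.0 CPM in shCTR 1, 2, 5 and 6 and 51.1, 62.7 and 55.2 CPM in shCBX7 1, 2 and 5. It had a log2 fold change of -0.46 (SE 0.15, edgeR adjusted p = 0.616), which was -0.21 without shCTR 1 and 2, and Rnf2, a ubiquitin ligase subunit, one of -0.31 (SE 0.19), which was -0.08 without them. The 13 subunits of variant PRC1, which lacks CBX proteins, had a median of 0.04, and -0.09 without shCTR 1 and 2, with E2f6, a repressor of the E2F family, at 0.31 (SE 0.11) and Auts2, a subunit known from neural development, at -0.76 (SE 0.34). Among 9 genes of proteins that oppose Polycomb, 8 had negative values. The 9 encode histone H3 methylases of the trithorax group, demethylases and members of a deubiquitinase complex. Their median was -0.34, and -0.32 without shCTR 1 and 2. Kmt2c and Kmt2d, methylases of enhancers, were at -0.58 (SE 0.21) and -0.50 (SE 0.25), both with overlapping groups. Without shCTR 1 and 2 they were at -0.36 and -0.48.

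Hox genes are among those that Polycomb is known to hold silent. Of 39 Hox genes 8 passed the filter on low counts, which a gene could pass through any of the 3 groups. Their median log2 fold change was -1.06, 7 were negative, and 7 had more than 20% of their counts on the opposite strand. Over the members that passed the filter in each fit, the median was 0.18 after forward-strand counts were subtracted and -0.08 without shCTR 1 and 2. The summed level of all 39 was 7.92, 18.9, 4.95 and 2.99 CPM in shCTR 1, 2, 5 and 6 and 0.927, 12.7 and 1.62 CPM in shCBX7 1, 2 and 5, highest in replicate 2 of both groups. Hoxb9 measured 0.238, 0.250, 0.107 and 0.0864 CPM in shCTR, against 0, 0.0594 and 0.0713 CPM in shCBX7, with 42.1% on the opposite strand.

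Of 88 other developmental transcription factors 69 were tested, with a median of -0.18, and -0.08 without shCTR 1 and 2. A low gene could pass the filter through shCTR alone, so no count of lower members is read. The summed level of all 88 was 1887, 2433, 1268 and 1122 CPM in shCTR 1, 2, 5 and 6 and 1119, 1700 and 1231 CPM in shCBX7 1, 2 and 5, with overlapping groups. Lhx4, a LIM homeobox factor, measured 1.15, 0.701, 0.747 and 0.230 CPM in shCTR 1, 2, 5 and 6 and 0.0632, 0.119 and 0.0476 CPM in shCBX7 1, 2 and 5. The groups did not overlap, the log2 fold change was -3.18 (SE 0.62, edgeR adjusted p = 0.247), and 49.7% of its counts were on the opposite strand. The 7 inhibitors of cyclin-dependent kinases had a median of 0.16, and 0.08 without shCTR 1 and 2. Cdkn1a, which encodes p21, was at 0.32 (SE 0.19), and Cdkn1c, which encodes p57, at -1.29 (SE 0.67), but at 0.08 without shCTR 1 and 2, of which shCTR 2 held 165 CPM.

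Genes of growth and metabolism had small positive values in most members. Of 40 S phase genes 35 were positive, with a median log2 fold change of 0.24, and 0.12 without shCTR 1 and 2. Of 37 mitosis genes 35 were positive (median 0.26), with the spindle checkpoint gene Bub3 at 0.25 (SE 0.13), or 0.14 without shCTR 1 and 2, and the cytokinesis gene Racgap1 at 0.48 (SE 0.36). Their summed level, however, overlapped between the groups: 1139, 450, 952 and 686 CPM in shCTR 1, 2, 5 and 6 and 1015, 1045 and 856 CPM in shCBX7 1, 2 and 5. The lowest sum was that of shCTR 2, which held the highest fibroblast marker sum, 43381 CPM. In shCBX7 2, with 25670 CPM of fibroblast markers, the mitosis sum was the highest of its group. Whether the sums are linked was not tested. The mitosis median was 0.28 without shCTR 1 and 2.

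Of 76 nuclear-encoded genes of oxidative phosphorylation 69 were positive, and 5 had higher values at an unadjusted p under 0.05 against none lower. For 9 the groups did not overlap, all higher, against 1.70% of all genes. The list's median opposite-strand share was 0.0821%, and of the 9039 genes under 1% a total of 207 were higher without overlap. The list's median log2 fold change was 0.12, against 0.06 over those 9039, and the interval of each of the 76 lay within 2-fold. Atp5g3, a subunit of the ATP synthase ring, measured 105, 106, 124 and 122 CPM in shCTR 1, 2, 5 and 6 and 161, 135 and 138 CPM in shCBX7 1, 2 and 5, a log2 fold change of 0.34 (SE 0.11, edgeR adjusted p = 0.565). Of 22 dynactin and dynein subunits 21 were positive (median 0.16), Actr1a of the dynactin filament at 0.24 (SE 0.10). The 84 ribosomal protein genes had a median of 0.03, and 0.10 without shCTR 1 and 2, with Rpl27 at 0.33 (SE 0.14).

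Of 22 antioxidant genes 18 were positive (median 0.17), among them Txn1, thioredoxin, at 0.40 (SE 0.18), and at 0.20 without shCTR 1 and 2. The 25 genes of cholesterol synthesis had 22 positive values and a median of 0.17, with the enzyme genes Acat2 at 0.34 (SE 0.21) and Fdps at 0.37 (SE 0.24), but the median was -0.11 without shCTR 1 and 2. Medians were 0.10 for 25 p53 targets and 0.07 for 23 stress response genes, and -0.12 and -0.04 without shCTR 1 and 2.

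Among signalling lists the largest medians changed sign or shrank when shCTR 1 and 2 were left out. The 17 genes of LIF and interleukin 6 signalling had 14 negative values and a median of -0.45, against 0.12 without these libraries. Lifr was described above, and Il11, a cytokine of this family, was at 0.92 (SE 0.56), and at 0.42 without them. RUNX factors with Cbfb had a median of -0.55 over 4 genes, and -0.13 without these libraries. The 14 feedback genes of ERK signalling had 12 positive values and a median of 0.35, against 0.02 without these libraries. Spry2 among them was at 0.33 (SE 0.21), and at 0.11 without shCTR 1 and 2. The 18 Wnt genes had a median of -0.02, and 0.12 without these libraries. Sfrp2 and Sfrp1, secreted Wnt inhibitors, were at -2.88 (SE 1.20) and -1.68 (SE 1.06), but at 0.09 and 0.56 without shCTR 1 and 2. In shCTR 2 they measured 298 and 1341 CPM.

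The 17 targets of TGF-beta and BMP had a median of -0.19, and 0.15 without shCTR 1 and 2. The 16 Notch genes had a median of -0.14, and -0.26 without them, with Lfng, which modifies Notch, at -0.87 (SE 0.40). The 19 immediate early genes and the 24 interferon-stimulated genes had medians of 0.04 each, and -0.05 and 0.03 without shCTR 1 and 2, with Jun, an AP-1 factor, at 0.54 (SE 0.36), and at 0.13 without shCTR 1 and 2.

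Matrix genes varied widely between the replicates of a group. Of 22 collagens 17 were negative (median -0.30), and the median was 0.23 without shCTR 1 and 2. Col12a1, a fibril-associated collagen, measured 1950, 4659, 1271 and 148 CPM in shCTR 1, 2, 5 and 6 and 138, 947 and 166 CPM in shCBX7 1, 2 and 5, a log2 fold change of -2.27 (SE 1.03) with overlapping groups, and -0.77 without shCTR 1 and 2. Of 21 matrix proteases and inhibitors 15 were positive (median 0.29, and 0.54 without shCTR 1 and 2). Mmp10, a stromelysin, measured 17.3, 11.6, 30.4 and 61.9 CPM in shCTR, against 285, 86.5 and 38.9 CPM in shCBX7, a log2 fold change with a 95% interval of 0.32 to 4.02 (edgeR adjusted p = 0.723). Its shCBX7 replicate 5 lay below shCTR 6. Plau, urokinase, was at 1.26 (SE 0.73), and at 0.55 without shCTR 1 and 2.

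Markers of cell types also varied widely within each group. Fibroblast markers summed to 16285, 43381, 11129 and 10658 CPM in shCTR 1, 2, 5 and 6 and to 8810, 25670 and 13139 CPM in shCBX7 1, 2 and 5, highest in replicate 2 of both groups. Markers of horizontal basal cells summed to 2147, 1532, 2787 and 4067 CPM in shCTR and to 2377, 1589 and 3793 CPM in shCBX7, lowest in replicate 2 of both. Both sums overlapped between the hairpins. The median log2 fold change was -0.17 over 22 fibroblast markers, against 0.52 without shCTR 1 and 2, and -0.14 over 16 basal cell markers, against -0.79. Postn, periostin of fibroblasts, was at -2.69 (SE 0.98), and at -0.90 without these libraries, and Fbln1, fibulin, at -1.48 (SE 0.80), and at -0.70 without them. Trp63, the master factor of basal cells, was at -0.64 (SE 0.42), and at -1.02 without shCTR 1 and 2, and Krt15, a basal keratin, at -0.97 (SE 0.89).

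Neuronal markers were few and split. Of 13 tested markers of immature olfactory neurons 8 were positive, with Uchl1 higher as given above, while Stmn2, a tubulin regulator of growing axons, measured 5.86, 1.40, 2.95 and 1.87 CPM in shCTR 1, 2, 5 and 6 and 0.485, 0.713 and 1.40 CPM in shCBX7 1, 2 and 5 (log2 fold change -1.80, SE 0.61). Cngb1, a channel subunit of mature olfactory neurons, was at -1.84 (SE 0.50), with 32.6% of its counts on the opposite strand, and at -1.14 after subtraction and also without shCTR 1 and 2. The 8 tested markers of mature neurons had a median of -0.16, and 0.09 without shCTR 1 and 2, and the 10 of globose basal cells and progenitors had medians of 0 and 0.04.

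The 14 tested markers of ensheathing glia and Schwann cells had a median of -0.41, and -0.38 without shCTR 1 and 2. Foxd3, a neural crest factor, measured 1.11, 0.701, 1.39 and 1.21 CPM in shCTR 1, 2, 5 and 6 and 0.358, 0.119 and 0.523 CPM in shCBX7 1, 2 and 5, without overlap. Ngfr, the low-affinity neurotrophin receptor, measured 7.21, 5.01, 5.13 and 5.07 CPM in shCTR, against 2.76, 0.624 and 3.28 CPM in shCBX7, also without overlap, and Sox10 of glia overlapped. Foxd3 and Ngfr had log2 fold changes of -1.70 (SE 0.68) and -1.33 (SE 0.58).

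Medians of sustentacular, Bowman gland and respiratory markers were -0.13, -0.54 and -0.32, and -0.20, -0.61 and 0.05 without shCTR 1 and 2. Cbr2, a carbonyl reductase of sustentacular cells, was at -0.99 (SE 0.46), and at -0.32 without shCTR 1 and 2. The 4 microvillar genes tested had a median of 0.06, and -0.22 without them. Smooth muscle, endothelial, immune and skeletal muscle markers had medians of -0.91, -0.73, -0.42 and -0.70. Over the members that passed the filter in each fit, the medians were -0.34, -0.28, 0.27 and -0.18 after forward-strand counts were subtracted. Without shCTR 1 and 2 they were -0.05, -0.39, -0.18 and -0.23. Median opposite-strand shares of these lists were 1.48%, 11.3%, 16.1% and 8.33%. Cnn1 and Myh11, contractile proteins of smooth muscle, were at -3.54 (SE 1.32) and -1.22 (SE 0.46), and at -0.53 and -0.55 without shCTR 1 and 2. Cd74 of antigen-presenting cells stayed under 1 CPM in each of the 7 libraries. Ttn, the titin gene of muscle, measured 8.16, 6.81, 7.47 and 3.86 CPM in shCTR 1, 2, 5 and 6 and 1.92, 2.14 and 3.30 CPM in shCBX7 1, 2 and 5, while 53.3% of its stranded counts came from the opposite strand.

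**Figure D5:**
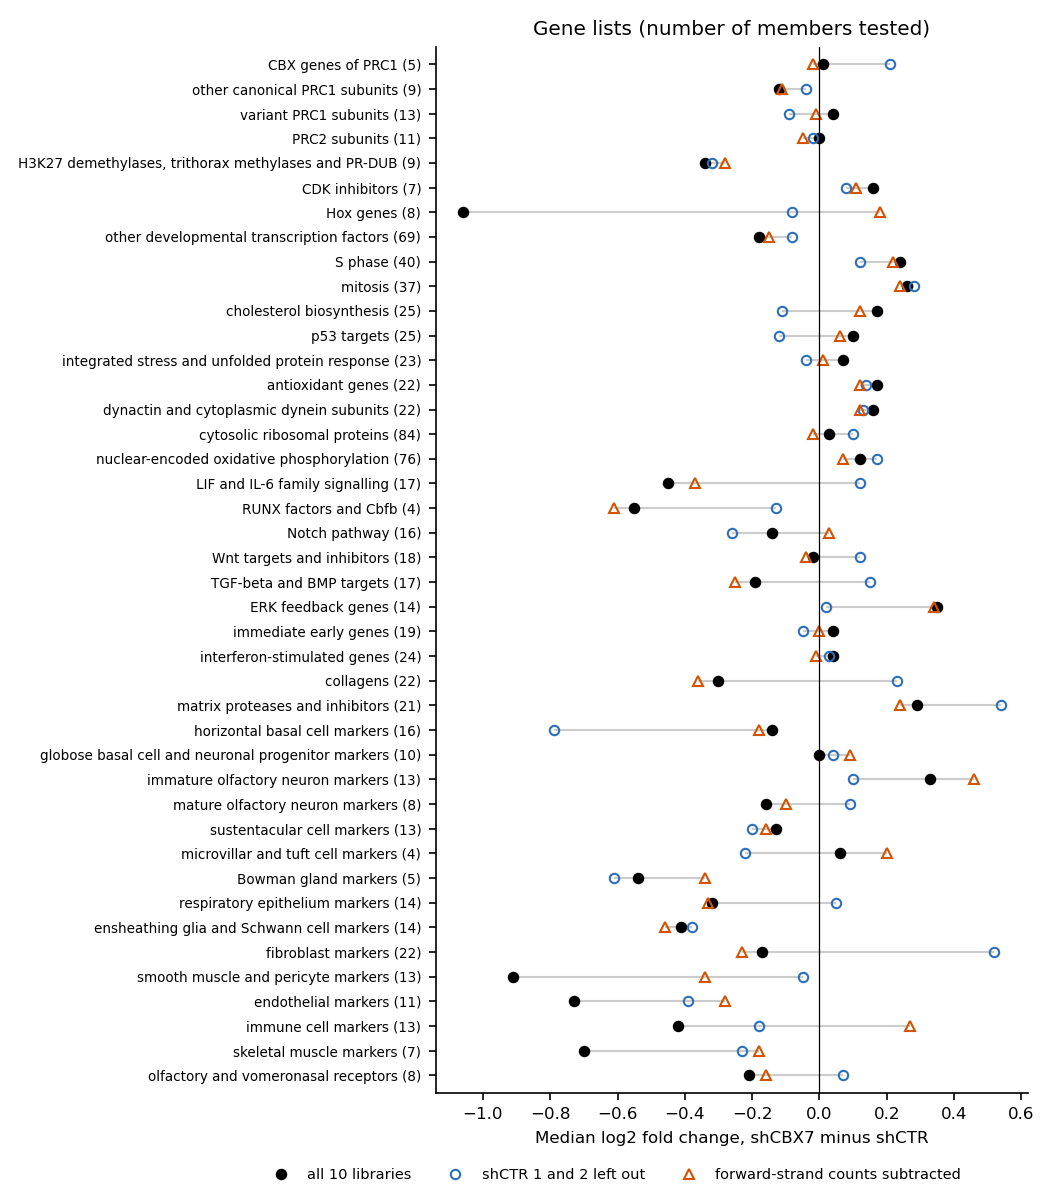
Median log2 fold change of the tested members of each of 42 lists, over all 10 libraries (filled), without shCTR 1 and 2 (open circles) and after subtraction of forward-strand counts (triangles). Each median covers the members that passed the filter in that fit. The Hox median is -1.06, -0.08 and 0.18 in this order, while mitosis, dynactin and oxidative phosphorylation stay between 0.07 and 0.28 in all 3.

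Set directly against the Cbx8 hairpin, the same 3 libraries differed in many genes. The edgeR contrast of shCBX7 with shCBX8 called 4762 of 16669 genes (28.6%). The count was 2730 without shCBX7 1, 2900 without shCBX7 2, 1848 without shCBX8 1 and 1784 without shCBX8 6. Cbx8 was higher in shCBX7, by a log2 difference of 1.33 (SE 0.23, edgeR adjusted p = 0.00578), Cbx6 by 1.09 (SE 0.28, edgeR adjusted p = 0.0214) and Cbx2 by 0.74 (SE 0.19, edgeR adjusted p = 0.0201), while Cbx7 itself was at -0.50 (SE 0.51, edgeR adjusted p = 0.482). The Cbx7 transcript was therefore not lower beyond error under its own hairpin than under the other.

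Several genes named above lay far apart between the 2 hairpins. Igf2 measured 147, 55.3 and 72.4 CPM in shCBX7 1, 2 and 5 and 1.22, 5.83 and 1.57 CPM in shCBX8 1, 2 and 6, a log2 difference of 5.01 (SE 0.73, edgeR adjusted p = 0.00349). Robo2 was higher in shCBX7 by 3.91 (SE 0.39, edgeR adjusted p = 0.00157), Lifr by 1.58 (SE 0.28, edgeR adjusted p = 0.00655) and Cdkn2a by 1.08 (SE 0.22, edgeR adjusted p = 0.00954). Prdx6 was lower in shCBX7, by -1.11 (SE 0.19, edgeR adjusted p = 0.00551), with 392, 381 and 360 CPM in shCBX8 1, 2 and 6. Dctn3 and Rhou, at 0.23 (SE 0.10) and -0.07 (SE 0.22), did not pass. Fibroblast markers moved with this contrast, at 8810, 25670 and 13139 CPM in shCBX7 and 1622, 5695 and 1406 CPM in shCBX8, and so did markers of horizontal basal cells, at 2377, 1589 and 3793 CPM against 6905, 4879 and 8457 CPM. Their part in these differences was not tested.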

How the data were processed

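Libraries were prepared from 500 ng of total RNA with a stranded kit, per the labels' protocols. Reads were processed with bcl2fastq 2.17, Trim Galore 0.4.3 and STAR 2.5.0a on mm10, per the submitters' processing notes. The release of the gene annotation used for counting is not given in the sources used. The authors deposited raw read counts per gene, unstranded and for each strand. The reverse-strand count was used, without the 4 totals that name no gene, whose shares include 5.03 to 21.7% unmapped reads. Of 41091 gene identifiers 40217 matched GENCODE M21, and the 874 others held at most 0.272% of a library's counts.

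In R 4.3.3, edgeR 4.0.16 kept genes by filterByExpr (minimum count of 10), scaled by TMM and fitted its quasi-likelihood test to all 10 libraries, with no factor but the group (biological coefficient of variation 0.375), with Benjamini-Hochberg adjustment over 16669 genes and a threshold of 0.05. The fit was tested on simulated data. DESeq2 1.42.0 was an alternative. Permutation tests on log2(CPM + 1) or on a library measure used the 35 arrangements of 7 libraries. A gene's opposite-strand share is its forward-strand part of stranded counts summed over the 7 libraries, and subtraction took forward-strand from reverse-strand counts, with 0 as the lowest value. Overlapping antisense genes also add to it. Libraries of a group differed beyond sampling noise (chi-square per degree of freedom 28.1 to 445).

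Genes named are Cbx2, Cbx6, Cbx7, Cbx8 and Cdkn2a, the 8 smallest p in each direction and the 6 largest log2 fold changes in each direction without overlap between groups (protein-coding, mean of at least 5 CPM), up to 2 genes of each list by p, and up to 5 in each direction that another fit calls. Some genes that these rules name are not reported here. Genes with 3 or fewer counts over shCBX7 were passed over, a choice made after the counts were seen. The comparison, lists and rules were chosen with earlier results of these data known. Alternatives were other scalings, filters and strands, the 7 libraries alone, a block, a covariate, omission of libraries or of the 10 most abundant genes, and thresholds of 0.01 and 0.10.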

Additional observations from a re-analysis of the deposited data

Results flagged for a closer look

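Among the 4 shCTR libraries, 1 library stood far from the other 3 in 7 of 83 values examined, and in 6 of the 7 it was shCTR 2. Chance gives about 1 in 20 for independent, normally distributed values. These values share libraries, and many are of genes chosen by the same contrast, so the count is no test. In shCTR 2 Cbx6 was at 283 CPM (144 to 167 in the others), Scube1 at 58.9 CPM (11.9 to 17.7), Dlc1 at 23.5 CPM (14.9 to 16.2), Sfrp2 at 298 CPM (6.05 to 33.2), Sfrp1 at 1341 CPM (78.3 to 269) and Myh11 at 5.56 CPM (1.53 to 2.14). In shCTR 1 Ngfr was at 7.21 CPM (5.01 to 5.13).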

How the results depend on the processing

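The count of called genes was 0 in each of the 12 other edgeR fits to all or part of the libraries, at thresholds of 0.01 and 0.10, and under each library left out but 1: leaving out libraries gave 0 to 41, with 41 without shCTR 6. DESeq2 called 91. The direct contrast with shCBX8 gave 1784 to 6005 genes as libraries were left out. The forward-strand difference ranged from -5.27 to -3.92 percentage points, with exact p = 0.0667 to 0.1, the smallest that 6 libraries allow. Same-numbered shCTR and shCBX7 libraries correlated at r = -0.07, 0.76 and 0.41 for replicates 1, 2 and 5. Libraries shCBX7 2 and 5 correlated best with the control of their own number, whereas shCBX7 1 did so with shCTR 6 (r = 0.52). The labels do not say whether the replicate number pairs samples, and so few correlations cannot settle it. With the number as a block 0 genes passed, 370 higher and 992 lower at an unadjusted p under 0.05 over 10 libraries, and 1120 and 1234 over 6. Cbx7 was at -0.90 and -1.09, and the block left 4661 calls against shCBX8.

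Of 1694 values of the 74 named genes under alternatives, 1627 kept their direction and their side of the threshold, 15 passed and 52 turned. With the covariate, an extrapolation between groups, log2 fold changes were Cbx2 -0.12, Cbx6 0.12, Cbx7 1.70, Cdkn2a -0.40, Runx1 0.10, Slc26a7 2.28, Robo2 0.36, Rhou 0.25, Grem1 -1.51, Add2 -0.83, Scg2 -1.08, Adcy8 -4.84, Tnfrsf26 -0.80, Rerg 0.63, Clu 0.23, Phc3 0.05, Rnf2 0.65, Cdkn1c 1.63, Cdkn1a -0.21 and Hoxb9 0.07. They were also Bub3 -0.11, Acat2 -0.34, Fdps -0.82, Txn1 -0.18, Il11 -1.70, Lfng 0.34, Sfrp2 1.98, Sfrp1 0.79, Spry2 -0.28, Jun -0.88, Col12a1 2.39, Mmp10 -1.60, Plau -1.66, Cngb1 0.52, Cbr2 1.10, Postn 3.31, Cnn1 3.8 and Ttn 0.05. Without shCTR 1 and 2 values turned for Cbx6 (0.17), Cdkn2a (-0.01), Cdkn1c (0.08), Sfrp2 (0.09) and Sfrp1 (0.56). The small value of Cbx8 was -0.02 with a mean of at least 1 CPM, after subtraction and with the block over 10 libraries, and -0.04 with the block over 6. As single libraries were left out it ranged from -0.16 to 0.16, at -0.07 without shCTR 5 and -0.05 without shCTR 6, and was lowest without shCBX7 2. Cbx6 was at 0.14 without shCTR 2 and 0.05 without shCBX7 1. The causes were not tested. Depth limits genes under 1 CPM most.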
